A study of Mus musculus with 9 samples.

Results

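LepR+ skeletal stem and progenitor cells of C57B6 mice that were 52 weeks old and had been given sodium salicylate were compared with LepR+ cells of mice that were 12 weeks old and had no treatment. There were 3 libraries in each group. The cells came from tibiae and femurs digested with collagenase, were taken by flow cytometry as leptin receptor positive cells of the non-hematopoietic compartment, and gave 1 bulk RNA library each. Age and salicylate differ together between these groups and cannot be told apart. Another 3 libraries came from untreated mice of 52 weeks, and their values stand beside some genes as a description. They enter the comparison only in the alternatives that use all 9 libraries, for the fit or for the filter. The dose, route and duration of salicylate are not given in the sources used here, nor is it stated whether the replicates were separate animals, so the p values measure the spread between these libraries. Of 52459 genes in the table, 14932 had a mean of at least 10 normalized counts over the 6 libraries and were tested, 166 of them immunoglobulin genes and 14766 other genes. Immunoglobulin genes were taken as the symbols that start with Igh, Igk or Igl. This rule also took in Ighmbp2, Igll1 and Iglon5, which are not antibody segments or constant regions. These 3 are counted among the 166, and none of them rose or fell.

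LepR+ cells are stromal cells that surround the sinusoids of the adult bone marrow. They are known for making Cxcl12 and Kitl, the secreted factors that hold and sustain blood stem cells, and as a source of new osteoblasts and marrow adipocytes. Salicylate, the deacetylated form of aspirin, is known as an inhibitor of the kinase that releases NF-kB and as a direct activator of the energy sensor AMPK. Antibody genes are assembled in B lineage cells from variable, diversity and joining segments and a constant region, and plasma cells secrete the product.

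The 6 libraries held 10973002 to 20746804 reads, and 20143 to 22540 genes had a read. Lepr was read in all of them, at 65748, 59657 and 75958 normalized counts in the treated 52-week libraries, against 89872, 78029 and 102240 in the 12-week libraries (log2 fold change −0.42 ± 0.16 (SE), adjusted p = 0.237). Cxcl12 (−0.53 ± 0.20, adjusted p = 0.207) and Kitl (−0.47 ± 0.14, adjusted p = 0.107) did not pass the test either. Markers of leukocytes were present in every library although the sort took non-hematopoietic cells, and their levels stand beside each result they move with. In bulk libraries fewer cells of a type and less RNA per cell cannot be told apart. A normalized count is a read count over the size factor of its library, without a correction for gene length, so that levels are compared between libraries and not between genes. Between 27.5% and 35.1% of the reads of each library were mitochondrial ribosomal RNA.

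Differences were taken on log2(normalized count + 1), as treated 52-week minus 12-week, and tested with limma over all 14932 genes. A gene is said to have risen or fallen where the Benjamini-Hochberg adjusted p was below 0.05. By this rule 281 genes (1.88%) rose and 148 (0.991%) fell, and 2152 genes had an unadjusted p below 0.05. These shares over all genes tested are the background for the counts of each gene list below. Immunoglobulin genes made up 53 of the genes that rose and none of those that fell. Outside them 228 genes rose, with a median log2 fold change of 1.71, and 148 fell, with a median of −1.02. The 2 directions differed in size: 211 of the 228 that rose but 76 of the 148 that fell changed by at least 1 on the log2 scale. The median difference over all genes tested was −0.01. The levels did not overlap between the 2 groups of 3 libraries for any of the 228 or the 148, against 8.45% (higher) and 10.2% (lower) of all genes tested outside immunoglobulin. Of the 228 that rose 15 had a 12-week mean below 10, and of the 148 that fell 10 had a treated mean below 10, so that these passed the filter only through the group where they were high.

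The number of calls depended on the test and on single libraries. Outside immunoglobulin, edgeR on the recovered reads called 118 genes higher and 69 lower, DESeq2 476 and 331, and limma without a trend in the spread 6 and 5. Leaving out treated replicate 1 left 80 higher and 55 lower calls, and treated replicate 2 left 70 and 74. Without young replicate 1 there were 100 and 41, without young replicate 2 96 and 44, and without young replicate 3 165 and 78. Without treated replicate 3, where antibody reads were most frequent, there were 210 and 188, more lower calls than with all 6 libraries, and 27 immunoglobulin genes rose.

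The scaling of the libraries decided how many genes fell. The table carries the size factors of the authors. When the libraries were instead scaled so that 20 LepR+ stroma markers were equal, an alternative chosen after seeing the data, the median over all genes moved to 0.46, 837 other genes rose and 32 fell, so that 96.6% of all calls were higher, against 65.5% with the deposited scaling. Scaling by the total without immunoglobulin and mitochondrially encoded genes moved the median to 0.13 and gave 79.9% higher calls. The 32 genes that fell under stroma scaling were all among the 148, and the 228 that rose all rose there as well. A call is said to be lost where the gene did not pass with 1 library left out or under stroma scaling, whichever is named.

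**Figure D1:**
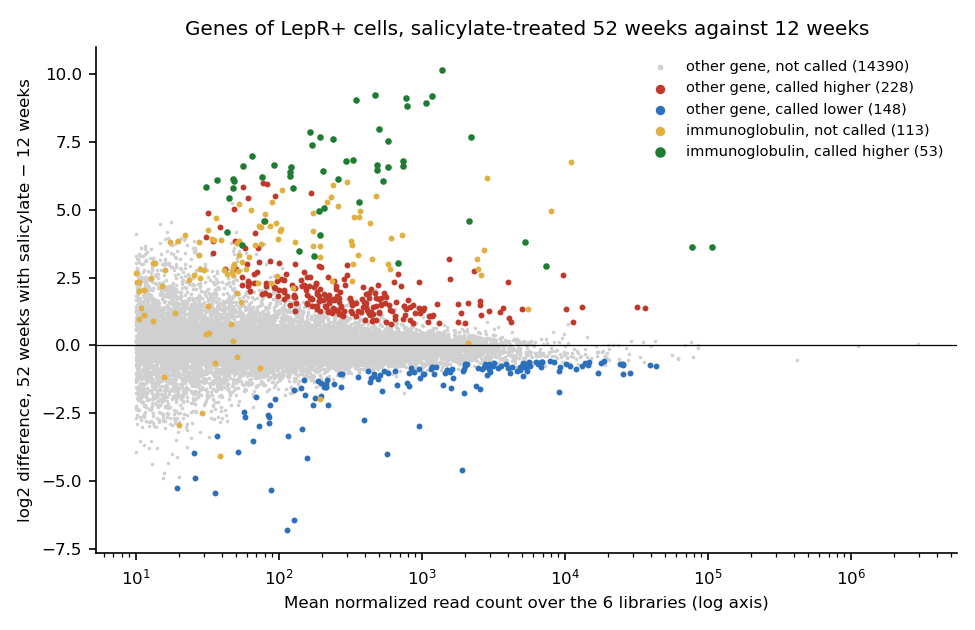
Each point is 1 of the 14932 genes tested, with its mean normalized count over the 6 libraries on the x axis, a log axis. The y axis shows the difference on log2(normalized count + 1), treated 52-week minus 12-week. Colours mark the 228 other genes and the 53 immunoglobulin genes that rose and the 148 genes that fell. The median log2 fold change was 6.40 for the 53 and 1.71 for the 228. These sets overlap, with 2.94 for Igha of the 53 and 5.97 for Slamf9 of the 228.

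The joining segments of the antibody loci are shown first, because every assembled antibody gene holds 1 of them. Of the 8 segments tested 3 rose, and 7 of the 8, Ighj3 and Ighj4 among them, had a 12-week mean below 10 and so passed the filter on low values only through the treated libraries. Capitals mark the stretch that codes for the tryptophan or phenylalanine, glycine, any residue, glycine sequence shared by antibody chains, searched on the coding strand as TGGGGNNNNGG or TTNGGNNNNGG. It was found in 8 of the 9 heavy and kappa joining segments of GENCODE release M21. The sequences come from that release on GRCm38. Ighj3 lies at chr12:113429085-113429132 and Ighj4 at chr12:113428514-113428567, both on the minus strand, and Igkj1 at chr6:70722562-70722599 on the plus strand. They were chosen after their values were seen.
Ighj3: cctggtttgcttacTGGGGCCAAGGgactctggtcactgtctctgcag
Ighj4: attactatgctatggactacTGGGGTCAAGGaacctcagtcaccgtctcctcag
Igkj1: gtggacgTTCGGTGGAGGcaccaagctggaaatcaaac

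Ighj3 had 72.3, 20.1 and 226 normalized counts in the treated 52-week libraries, against 6.22, 2.99 and 4.49 in the 12-week libraries (log2 fold change 3.70 ± 0.90 (SE), adjusted p = 0.0435). Ighj4 had 54.2, 16.2 and 184 in the treated 52-week libraries, against 0.89, 3.59 and 2.25 in the 12-week libraries (log2 fold change 4.20 ± 1.03 (SE), adjusted p = 0.0459). Igkj1 had 116, 128 and 523 in the treated 52-week libraries, against 25.8, 5.38 and 32.6 in the 12-week libraries (log2 fold change 3.47 ± 0.70 (SE), adjusted p = 0.0196). The groups did not overlap for any of the 3, and treated replicate 3 was the highest library for each. Ighj4 was lost whichever library was left out (highest adjusted p = 0.234), Ighj3 in 5 of the 6 cases (highest 0.209), and Igkj1 without treated replicate 3 or young replicate 2 (highest 0.073).

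Immunoglobulin genes together took 1.53%, 1.55% and 8.33% of the reads of the treated 52-week libraries and 3.25%, 16.5% and 32.6% in the untreated 52-week libraries, against 0.230%, 0.108% and 0.480% in the 12-week libraries. Treated and young libraries did not overlap, and the exact permutation test over the 6 libraries gave its smallest possible value (p = 0.1, two-sided). Treated replicate 3 stood apart from its own group here, with more than 5 times the share of either other treated library. Of the 166 immunoglobulin genes tested, 158 had a positive difference and 8 a negative one, none of the 8 with an unadjusted p below 0.05 in limma or a call by edgeR or DESeq2. The 3 treated libraries lay above the 3 young ones for 74 of the 166, beside 8.85% of all genes tested. As many as 40 had no read in any 12-week library and 95 had a 12-week mean below 10, so these passed the filter on low values only through the treated libraries, and the count that rose is no more than a description of them. Of the 53 that rose, 22 were among 72 heavy variable segments tested, 20 among 69 kappa variable segments, 7 among 11 constant regions, 2 among 4 heavy joining segments, 1 among 4 kappa joining segments and 1 among 3 lambda variable segments. Near-identical variable segments can share reads, so values of single segments are uncertain.

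Ighm (chr12:113418558-113422730 on GRCm38, minus strand), the constant region of IgM, the first antibody class a B cell makes, had 74308, 89983 and 434540 normalized counts in the treated 52-week libraries, against 12251, 5641 and 22884 in the 12-week libraries. The lowest treated library was more than 3 times the highest young one (log2 fold change 3.61 ± 0.57 (SE), adjusted p = 0.0062), and the call held with any 1 library left out. Igkc, the constant region of the kappa light chain, had 52093, 47392 and 334080 in the treated 52-week libraries, against 7069, 3002 and 20906 in the 12-week libraries (log2 fold change 3.62 ± 0.69 (SE), adjusted p = 0.0147), and was lost without young replicate 1 or 2 (highest adjusted p = 0.0608). Ighg3, the constant region of IgG3, was near absent at 12 weeks: it had 793, 411 and 889 normalized counts in the treated 52-week libraries, against 0.89, 0 and 0 in the 12-week libraries. That is 2627 reads against 1, a ratio of 2538 with a counting interval of 455 to 100290 (95%, exact). It passed limma with adjusted p = 1.75e-05 and every alternative that tested it. With a 12-week mean below 10, Ighg3 passed the filter on low values only through the treated libraries. Ighm took 80.4%, 92.6% and 75.6% of the heavy constant region reads in the treated 52-week libraries, against 74.6%, 75.5% and 89.8% in the 12-week libraries, and these shares overlapped.

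The other constant regions were uneven. Igha, the heavy chain of the mucosal class IgA, rose (4545, 2463 and 34208 in the treated 52-week libraries, against 1412, 797 and 748 in the 12-week libraries, log2 fold change 2.94 ± 0.67 (SE), adjusted p = 0.0331). Iglc1 (4.61, adjusted p = 0.023), Iglc3 (3.30, adjusted p = 0.0308) and Ighg2c (adjusted p = 0.0245) also rose. Ighg1 did not pass, with 4889, 237 and 40146 in the treated 52-week libraries, against 1592, 1003 and 0 in the 12-week libraries, where 1 young library had no read and the other 2 lay above the lowest treated one (adjusted p = 0.335). Ighg2b (adjusted p = 0.0549), Iglc2 (adjusted p = 0.0612) and Ighd, the class of mature naive B cells (log2 fold change 0.17, adjusted p = 0.935), did not pass. With 1 library left out, the calls of Igha, Iglc3 and Ighg2c were lost in at least 4 of 6 cases and that of Iglc1 without treated replicate 1 or 3 (highest adjusted p 0.117, 0.115, 0.102 and 0.0643).

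**Figure D2:**
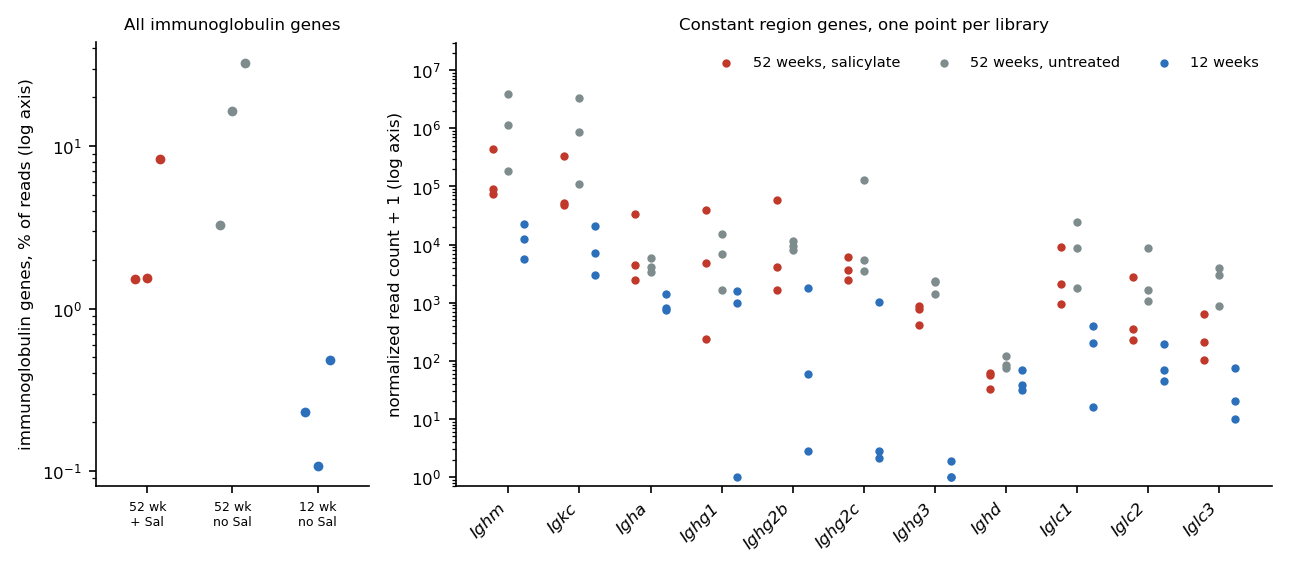
The left panel shows the percent of each library's reads from immunoglobulin genes, and the right panel the normalized count + 1 of the 11 constant region genes tested on a log axis, with 1 point per library for treated 52-week, untreated 52-week and 12-week cells. The treated libraries lie above the 12-week libraries for Ighm, Igkc and Ighg3 and overlap them for Ighd and Ighg1.

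Single variable segments led in single libraries. Ighv14-4 took 29.7% of the heavy variable reads of treated replicate 1, where Igkv6-20 took 30.0% of the kappa variable reads, and these genes were chosen after their values were seen. Ighv14-4 had 3619, 410.3 and 619 normalized counts in the treated 52-week libraries, against 4.44, 0 and 0 in the 12-week libraries (adjusted p = 0.000281), and Igkv6-20 had 5549, 522 and 347 in the treated 52-week libraries, against 4.44, 0.6 and 0 in the 12-week libraries (adjusted p = 0.000545). Both calls held with any 1 library left out. With 12-week means below 10, both genes passed the filter on low values only through the treated libraries. Treated replicate 2 was led by Ighv7-1 (42.6% of heavy variable reads) and Igkv15-103 (61.2% of kappa variable reads), and treated replicate 3 by Ighv3-6 (21.7%) and Igkv14-126 (19.3%). Ighv7-1 and Igkv15-103 led 2 of the 3 young libraries as well, with 42.6% and 42.7% of heavy and 51.1% and 48.1% of kappa variable reads, and neither gene passed the test between the groups (adjusted p = 0.992 and 0.728). A read was found on 72, 70 and 91 heavy variable segments in the treated 52-week libraries, against 38, 33 and 31 in the 12-week libraries, from 18916, 15719 and 73590 heavy variable reads in the treated 52-week libraries, against 2813, 2055 and 3041 in the 12-week libraries.

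The kappa variable genes Igkv3-4 and Igkv12-44 were among the 8 immunoglobulin genes that rose with the highest mean. Igkv3-4 had 558, 602 and 7150.1 normalized counts in the treated 52-week libraries, against 0, 0.6 and 0 in the 12-week libraries (8606 reads against 1). Igkv12-44 had 172, 618 and 6294 in the treated 52-week libraries, against 0, 0 and 2.25 in the 12-week libraries (7194 reads against 2). Both passed with any 1 library left out (adjusted p = 9e-05 and 0.000883 with all 6), although their levels differed widely between the treated libraries. Their 12-week means were below 10, so they passed the filter on low values only through the treated libraries. Over the 53 genes that rose the median log2 fold change was 6.40, and 6.21 with the 6 genes without a young read set at the bound that 3 reads per library allow.

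Markers of antibody secreting cells rose with the antibody genes in part. Of 12 plasma cell markers tested 5 rose and none fell (median 1.99 beside −0.01 over all genes), and 3 passed the filter only through the treated libraries. Mzb1, a chaperone of the B lineage endoplasmic reticulum, had 140.0, 155 and 758 in the treated 52-week libraries, against 23.1, 31.1 and 46 in the 12-week libraries (log2 fold change 2.95 ± 0.58 (SE), adjusted p = 0.0164). Jchain, which joins IgM and IgA chains into polymers, had 7306, 5434 and 39736 in the treated 52-week libraries, against 1848, 1349 and 2887 in the 12-week libraries (log2 fold change 2.59 ± 0.54 (SE), adjusted p = 0.0226). Both had treated replicate 3 highest, did not overlap between the groups, and were lost without young replicate 1 or 2 (highest adjusted p = 0.0663 and 0.096). Pou2af1 (2.35) and Prdm1 (2.39), transcription regulators of the same cells, and Edem1 (1.10), which clears misfolded proteins, also rose. With 1 library left out 0 to 5 of the 12 markers rose. The 12 markers summed to 12856 to 56458 normalized counts in the treated 52-week libraries, against 7208 to 10036 in the 12-week libraries, and the part of such cells in the antibody values was not tested.

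Of 15 B lineage markers tested 3 rose and none fell, with a median of 0.45 and a positive difference for 14 of them. The surface receptor gene Ms4a1, which encodes CD20, rose (2.70 ± 0.55, adjusted p = 0.0207), as did Cd74 and Cd24a, which other leukocytes also make. Genes of B cells and their precursors, chosen after their values were seen, overlapped between the groups: Pax5 had 51, 144 and 118 in the treated 52-week libraries, against 131, 135 and 24.7 in the 12-week libraries (adjusted p = 0.885), and Rag2, which cuts the antibody segments, had 4.52, 33.2 and 2.05 in the treated 52-week libraries, against 22.2, 1.79 and 25.8 in the 12-week libraries (adjusted p = 0.912). Cd79a (1.63, adjusted p = 0.177) did not pass either, but it did under stroma scaling (adjusted p = 0.0409) and with DESeq2 (adjusted p = 0.0216). Rag2 was the only 1 of the 15 with a negative difference. With 1 library left out 0 to 2 of the 15 rose.

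Genes of leukocytes at large rose as a group. All 11 pan-leukocyte markers rose (median 1.50 beside −0.01 over all genes), 8 to 11 of them with 1 library left out. Spi1, the transcription factor PU.1 of myeloid and B cells, had 373, 355 and 383 normalized counts in the treated 52-week libraries, against 36.4, 65.8 and 107 in the 12-week libraries. The treated libraries were close together and the lowest was more than 3 times the highest young one (log2 fold change 2.52 ± 0.37 (SE), adjusted p = 0.00455). Lcp1, the leukocyte actin bundler L-plastin, had 4379, 4245 and 2900.3 in the treated 52-week libraries, against 1318, 936 and 1442 in the 12-week libraries (log2 fold change 1.64 ± 0.21 (SE), adjusted p = 0.00226). Cd53, a leukocyte tetraspanin (1.54 ± 0.26), Tyrobp, an adaptor of myeloid and NK receptors (1.39 ± 0.22), and Rac2, a GTPase of blood cells (1.50 ± 0.25), rose and kept their calls with any 1 library left out. Ptprc, the common leukocyte antigen CD45, had 1529, 1732 and 1198 in the treated 52-week libraries, against 827, 537 and 413 in the 12-week libraries, and was lost without treated replicate 2 or young replicate 2 (adjusted p = 0.0118 with all 6, 0.0532 at most). The 11 markers summed to 15306 to 18848 normalized counts in the treated and 17893 to 39691 in the untreated 52-week libraries, against 5057 to 7716 in the 12-week libraries. All of these calls held under stroma scaling.

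All 12 neutrophil markers tested also rose (median 1.41), and 7 to 12 did with 1 library left out. Mpo, the peroxidase of primary granules, had 8449, 8375 and 3369 in the treated 52-week libraries, against 1181, 967 and 1631 in the 12-week libraries (log2 fold change 2.33 ± 0.31 (SE), adjusted p = 0.00249). Elane, the elastase of the same granules, had 2031, 1960.5 and 839 in the treated 52-week libraries, against 349, 214 and 353 in the 12-week libraries (log2 fold change 2.33 ± 0.32 (SE), adjusted p = 0.00325). For both, treated replicates 1 and 2 were high and replicate 3 lower, but above every young library. Of other neutrophil genes S100a8, a calcium binding protein of the neutrophil cytosol (1.41 ± 0.22), Lcn2, a siderophore binding protein (1.33 ± 0.21), and Ngp (1.40 ± 0.22) rose and kept their calls with any 1 library left out. The 12 markers summed to 104221 to 177435 in the treated 52-week libraries, against 45603 to 72398 in the 12-week libraries, and none of the 12 was without reads in any group. Gfi1, a repressor needed for neutrophil formation, had 59.4, 82.7 and 36 in the treated 52-week libraries, against 1.78, 4.19 and 2.25 in the 12-week libraries (log2 fold change 3.99 ± 0.85 (SE), adjusted p = 0.0242), and was lost without treated replicate 1, treated replicate 2 or young replicate 1. It passed the filter on low values only through the treated libraries.

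Of 13 macrophage and monocyte markers 5 rose and none fell (median 1.67). Csf1r, the receptor of macrophage colony stimulating factor, had 376, 315 and 219 in the treated 52-week libraries, against 87, 49.7 and 52.8 in the 12-week libraries (log2 fold change 2.26 ± 0.35 (SE), adjusted p = 0.00619), and kept its call with any library left out. Ly6c2, a surface protein of inflammatory monocytes, had 2333, 1848 and 8086 in the treated 52-week libraries, against 424, 342 and 804 in the 12-week libraries, with treated replicate 3 far above the others (log2 fold change 2.74 ± 0.45 (SE), adjusted p = 0.00742). Ly6c2 has near-identical neighbours that can share its reads. Mrc1 (1.67), C1qb (2.29) and the endotoxin coreceptor Cd14 (1.21) rose, but each call was lost in at least 5 of the 6 cases with 1 library left out. The 13 markers summed to 5797 to 12048 in the treated 52-week libraries, against 2697 to 3220 in the 12-week libraries. Ly6c2 alone gave 8086 of the 12048 in treated replicate 3, where Csf1r was the lowest of its group. The NK cell granule gene Nkg7 was the only 1 of 4 T and NK cell markers tested to rise (1.90, adjusted p = 0.0372), and was lost in 5 of the 6 cases with 1 library left out (highest adjusted p = 0.187), with edgeR (adjusted p = 0.0531) and with the replicate number as a block. Limma made no call among 11 erythroid (median 0.01) or 11 endothelial markers (median 0.10), with 1 unadjusted p below 0.05 in each list and no call by edgeR.

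Antigen presentation genes split by class. H2-Aa, the alpha chain of MHC class II, had 346, 378 and 483 in the treated 52-week libraries, against 150.1, 78.4 and 144 in the 12-week libraries (log2 fold change 1.73 ± 0.31 (SE), adjusted p = 0.0111). H2-Ab1, its beta chain, had 370.4, 264 and 304 in the treated 52-week libraries, against 95, 50.3 and 78.6 in the 12-week libraries (log2 fold change 2.09 ± 0.33 (SE), adjusted p = 0.00643). Cd74, the invariant chain that loads class II, rose as well (2.44 ± 0.47, adjusted p = 0.0163), but not without young replicate 1 or 2 (highest 0.0724). The class I heavy chains H2-D1 (−0.68 ± 0.14, adjusted p = 0.0222) and H2-K1 (−0.59 ± 0.14, adjusted p = 0.0441), which nearly every cell makes, fell. They did not pass under stroma scaling (adjusted p = 0.38 and 0.677) or with most single libraries left out, while H2-Aa and H2-Ab1 passed in each of these cases. Class I genes share reads with their neighbours and are uncertain one by one. Over all 19 antigen presentation genes tested 3 rose and 2 fell, with a median of −0.19, and 0.29 under stroma scaling.

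Several of the largest rises were in genes with almost no reads in most of the 12-week libraries. Epx, the peroxidase of eosinophils, had 469.8, 151 and 318 normalized counts in the treated 52-week libraries, against 0.89, 0.6 and 62.9 in the 12-week libraries (log2 fold change 5.62 ± 1.11 (SE), adjusted p = 0.0171), and Ear6, an eosinophil ribonuclease with near-identical relatives, had 205, 161 and 74 in the treated 52-week libraries, against 3.55, 0 and 37 in the 12-week libraries (log2 fold change 4.61 ± 1.06 (SE), adjusted p = 0.0345). For both, young replicate 3 was above its group, and both calls were lost without treated replicate 1, young replicate 1 or young replicate 2, that of Ear6 also without treated replicate 2 or 3. Neither Epx nor Ear6 passed edgeR (adjusted p = 0.135 and 0.174) or DESeq2 (adjusted p = 0.208 and 0.289). Prg2, the eosinophil major basic protein, was chosen after its values were seen: it had 873, 273 and 478 in the treated 52-week libraries, against 71, 40.7 and 78.6 in the 12-week libraries (log2 fold change 2.97 ± 0.41 (SE), adjusted p = 0.00352), and kept its call with any library left out. Of 2 surface receptors of leukocytes, Slamf9 had 521 reads in the treated 52-week libraries, against 2 in the 12-week libraries, a ratio of normalized counts of 252 (counting interval 69.3 to 2084), and Klra17 had 370 reads in the treated 52-week libraries, against 2 in the 12-week libraries, a ratio of 179 (49.1 to 1481). The chitinase-like gene Chil5 had 216 reads in the treated 52-week libraries, against 3 in the 12-week libraries, a ratio of 69.6 (23.5 to 340). The class I gene H2-M10.1 had no read at 12 weeks and was at least 59.3-fold higher in the treated 52-week libraries, taking 3 reads per library as the floor. Slamf9, Klra17, Chil5 and H2-M10.1 had 12-week means below 10, so they passed the filter on low values only through the treated libraries. Slamf9 and Klra17 were lost without treated replicate 2 or 3 (highest adjusted p = 0.0843 and 0.0831). Chil5 was lost in 4 of the 6 cases with 1 library left out (highest 0.154).

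The remaining largest rises were Epcam, an epithelial adhesion protein (47.8, 110.5 and 382 in the treated 52-week libraries, against 0, 0 and 21.3 in the 12-week libraries), Bhlha15, the secretory cell regulator Mist1 (31.6, 41 and 215 in the treated 52-week libraries, against 0, 7.18 and 0 in the 12-week libraries), and Oosp1 (92.3, 57.2 and 204 in the treated 52-week libraries, against 0, 13.2 and 0 in the 12-week libraries). Treated replicate 3 was the highest library for these 3 genes (adjusted p = 0.0256, 0.0343 and 0.0184), and none of them passed edgeR (adjusted p = 0.118, 0.085 and 0.0879). Clec4a1, a lectin receptor of myeloid cells, was instead highest in treated replicate 2, at 85.8, 230.3 and 66.8 in the treated 52-week libraries, against 0.89, 5.98 and 18 in the 12-week libraries (adjusted p = 0.0223). Snhg11, a noncoding host of small nucleolar RNAs, had 31.6, 107 and 82.2 in the treated 52-week libraries, against 1.78, 11.4 and 0 in the 12-week libraries (adjusted p = 0.0397). Each of the 5 was lost in at least 4 of the 6 cases with 1 library left out. All 5 had a 12-week mean below 10 and so passed the filter on low values only through the treated libraries.

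Genes of cartilage fell. Of 11 chondrocyte markers tested 7 fell and none rose (median −4.01, and −3.54 under stroma scaling, where the same count fell). Col2a1 (chr15:97975602-98004695 on GRCm38), the main collagen of cartilage, had 144, 66.5 and 87.3 normalized counts in the treated 52-week libraries and 349, 177 and 0 in the untreated 52-week libraries, against 1895, 8499.5 and 735 in the 12-week libraries. The young libraries differed more than 10-fold among themselves, with replicate 2 highest, but the lowest was still far above every treated library (log2 fold change −4.58 ± 0.63 (SE), adjusted p = 0.00315). Hapln1, the link protein that ties aggrecan to hyaluronan, had 58.1, 41.7 and 23.6 in the treated 52-week libraries, against 423, 2679 and 228 in the 12-week libraries (log2 fold change −4.01 ± 0.68 (SE), adjusted p = 0.00907). Col11a1, a minor fibril collagen of cartilage, had 121, 239 and 243 in the treated 52-week libraries, against 1534, 2765 and 811 in the 12-week libraries (log2 fold change −2.97 ± 0.38 (SE), adjusted p = 0.00249). These 3 kept their calls with any 1 library left out.

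Acan, the aggregating proteoglycan of cartilage, had 11, 7.73 and 14.4 in the treated 52-week libraries, against 201, 639 and 68.5 in the 12-week libraries (log2 fold change −4.15 ± 0.70 (SE), adjusted p = 0.00869). Matn3, a matrilin of growth plate cartilage, had 1 read in the treated 52-week libraries, against 1062 in the 12-week libraries (109, 539 and 42.7 normalized counts), a ratio of 1099 (counting interval 197 to 43456). Cnmd, the cartilage protein chondromodulin, had 3.23, 5.41 and 0 in the treated 52-week libraries, against 59.5, 391 and 73 in the 12-week libraries (log2 fold change −5.33 ± 0.96 (SE), adjusted p = 0.0118). All of them were highest in young replicate 2, and all lost their call without it (adjusted p = 0.0536, 0.0867 and 0.108). Col9a1 had no read in the treated 52-week libraries, against 1211 in the 12-week libraries, and was at least 105-fold lower, and Ucma, a secreted cartilage matrix protein, had 2 reads in the treated 52-week libraries, against 215 in the 12-week libraries, a ratio of 111 (30.4 to 925). Col9a1 and Ucma each lost their call in at least 4 of the 6 cases with 1 library left out. The 11 markers summed to 1471 to 1791 in the treated 52-week libraries, against 3392 to 18685 in the 12-week libraries, and 4 of the 11 passed the filter on low values only through the young libraries.

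Genes of bone matrix also fell. Of 12 osteoblast and osteocyte markers tested 7 fell and 1 rose (median −0.90, and −0.43 under stroma scaling with 3 lower and 1 higher), and 3 to 7 fell with 1 library left out. Col1a1 (chr11:94936224-94953042 on GRCm38), the main chain of bone collagen, had 3189, 4555 and 5078 normalized counts in the treated 52-week libraries and 4724, 5026 and 506 in the untreated 52-week libraries, against 11516, 15802 and 14415 in the 12-week libraries. The groups were well apart and each was narrow (log2 fold change −1.72 ± 0.19 (SE), adjusted p = 0.000762), and the call held with any library left out and under stroma scaling (−1.24, adjusted p = 0.00268). Its partner chain Col1a2 had 15125, 15290 and 19965 in the treated 52-week libraries, against 32024, 37179 and 34047 in the 12-week libraries (log2 fold change −1.04 ± 0.15 (SE), adjusted p = 0.00455). Ibsp, the bone sialoprotein that seeds mineral, had 13209, 10256 and 10761 in the treated 52-week libraries, against 21397, 25751 and 21274 in the 12-week libraries (log2 fold change −1.002 ± 0.15 (SE), adjusted p = 0.00549), but did not pass under stroma scaling (adjusted p = 0.109). Bglap, the osteocalcin of mature osteoblasts, had 21.3, 44 and 11.3 in the treated 52-week libraries, against 103, 171 and 167 in the 12-week libraries (log2 fold change −2.64 ± 0.54 (SE), adjusted p = 0.0196), and was lost without treated replicate 1 or any 1 young library. Bglap shares reads with its near copies.

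Phex, a membrane peptidase of osteoblasts and osteocytes that restrains the phosphate hormone FGF23, went the other way. It had 4180.2, 5894 and 6336 normalized counts in the treated 52-week libraries and 4155, 3735 and 1084 in the untreated 52-week libraries, against 2614, 2725 and 2763 in the 12-week libraries. The young libraries lay within a narrow band below all treated ones (log2 fold change 0.996 ± 0.17 (SE), adjusted p = 0.00935), and the call held with any library left out and under stroma scaling.

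Of 19 collagen genes tested 8 fell, beside 0.991% of all genes tested, and none rose (median −0.79, and −0.34 under stroma scaling, where 2 fell). The 22 collagens of the list summed to 37369 to 47295 normalized counts in the treated 52-week libraries, against 77481 to 93311 in the 12-week libraries. Beside type I, Col12a1, which decorates fibrils (−0.998 ± 0.17, adjusted p = 0.00861), Col4a2 of the basement membrane (−0.86 ± 0.16, adjusted p = 0.0119) and Col5a2 (−1.02 ± 0.19, adjusted p = 0.0129) fell. None of these passed under stroma scaling (adjusted p = 0.138, 0.214 and 0.131). Of 35 other matrix proteins and matrix enzymes 4 fell and none rose. Fmod, a small proteoglycan that binds collagen fibrils, had 374, 440.5 and 425 in the treated 52-week libraries, against 942, 1617 and 1074 in the 12-week libraries (log2 fold change −1.51 ± 0.22 (SE), adjusted p = 0.00455). Sparc, a collagen binding glycoprotein (−1.02 ± 0.17), the collagen cross-linking oxidase Lox (−0.82 ± 0.17) and the protease Adamts1 (−0.93 ± 0.20) fell with the deposited scaling, and of the 4 only Fmod passed under stroma scaling. The median of this list was −0.46 and changed sign to 0.01 under stroma scaling.

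**Figure D3:**
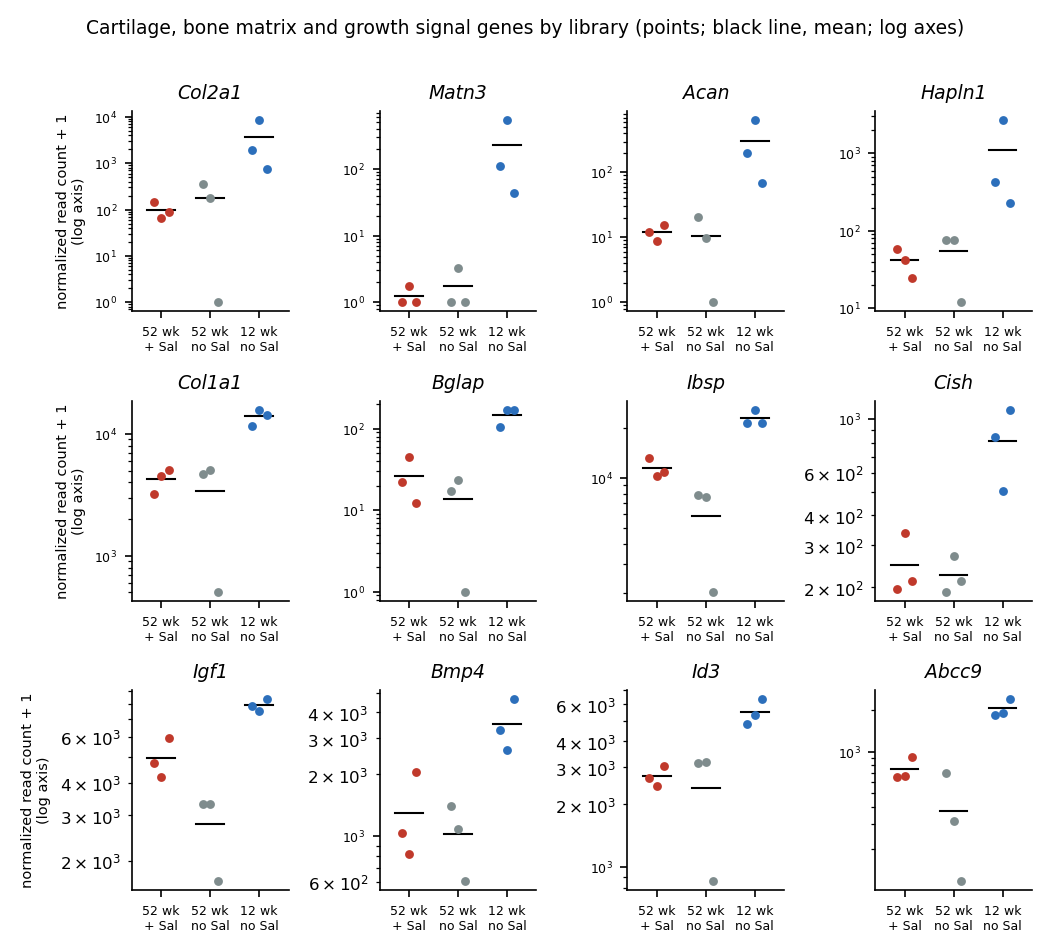
Normalized count + 1 on a log axis for 12 genes that fell, with 1 point per library for treated 52-week, untreated 52-week and 12-week cells and a black line at the mean of each group. For all 12 the 3 treated libraries lie below the 3 libraries of 12 weeks, with the widest gaps for Col2a1, Matn3, Acan and Hapln1.

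Further genes with large falls had no shared list. Clstn2, a calsyntenin adhesion protein, had 7.1, 10.1 and 12.3 normalized counts in the treated 52-week libraries, against 109, 110.1 and 150.4 in the 12-week libraries (log2 fold change −3.53 ± 0.54 (SE), adjusted p = 0.00576), and kept its call with any library left out and under stroma scaling. Slc13a5, the citrate transporter of the cell membrane, had 0, 3.09 and 0 in the treated 52-week libraries, against 67.5, 88.5 and 55 in the 12-week libraries (adjusted p = 0.0129), and was lost without any 1 young library. Tspan7, a tetraspanin, had 2.58, 13.1 and 4.11 in the treated 52-week libraries, against 86.1, 115 and 89.8 in the 12-week libraries (adjusted p = 0.0117), and Gpc3, a glypican that binds growth factors, had 9.68, 3.09 and 5.14 in the treated 52-week libraries, against 61.3, 46.7 and 95.4 in the 12-week libraries (adjusted p = 0.0279). 5430419D17Rik had 20, 6.95 and 27.7 in the treated 52-week libraries, against 326, 254 and 59.5 in the 12-week libraries (adjusted p = 0.0197). All of them passed under stroma scaling, and Tspan7, Gpc3 and 5430419D17Rik were lost in at least 2 of the 6 cases with 1 library left out. Clstn2, Slc13a5, Tspan7 and Gpc3 had treated means below 10. These genes so passed the filter on low values only through the young libraries.

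Markers of the LepR+ stroma itself lay a little lower as a group. All 20 had a negative difference (median −0.52). The treated libraries lay below the young ones without overlap for 14, against 10.1% of all genes tested. Of the 20, 3 fell, against 0.991% of all genes tested: Angpt1, a ligand of the Tie2 receptor (−0.71 ± 0.15, adjusted p = 0.0256), Hp, the hemoglobin scavenger haptoglobin (−0.70 ± 0.15, adjusted p = 0.0279), and Ebf3, a transcription factor of these cells (−0.64 ± 0.15, adjusted p = 0.0337). The 20 markers summed to 587363 to 749907 normalized counts in the treated 52-week libraries, against 806168 to 1008620 in the 12-week libraries, while the summed leukocyte, neutrophil and immunoglobulin values were higher in the treated libraries. The part of those cells in the lower stroma values was not tested. Under stroma scaling the median was −0.04 by construction and none of the 20 passed, and 0 to 7 fell with 1 library left out. Of 8 mural markers Abcc9, the sulfonylurea receptor of pericyte potassium channels, was the 1 that fell, with 652, 672 and 921 in the treated 52-week libraries, against 1839, 1911 and 2391 in the 12-week libraries (log2 fold change −1.46 ± 0.19 (SE), adjusted p = 0.00249), and it kept its call with any library left out and under stroma scaling. Among 7 adipogenic markers tested Apoe fell (−0.60, adjusted p = 0.0475), but not under stroma scaling (adjusted p = 0.655).

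A pair of cytokine feedback genes, chosen after their values were seen, fell together. Cish and Socs2 are known as targets of STAT5 downstream of growth hormone and other cytokines and act back on those receptors. Cish had 196, 335 and 212 normalized counts in the treated 52-week libraries and 191, 270.3 and 212 in the untreated 52-week libraries, against 844, 504 and 1096 in the 12-week libraries, with no overlap between treated and young (log2 fold change −1.69 ± 0.30 (SE), adjusted p = 0.0111). Socs2 had 320.1, 304 and 395 in the treated 52-week libraries, against 1107, 511 and 1406 in the 12-week libraries (log2 fold change −1.45 ± 0.31 (SE), adjusted p = 0.0256). Young replicate 2 was the lowest of its group for both. Cish was lost without young replicate 1 (adjusted p = 0.0538) and held under stroma scaling (adjusted p = 0.0348), while Socs2 was lost in 4 cases with 1 library left out and under stroma scaling (adjusted p = 0.0647).

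The start of Cish is shown because STAT5 is known to bind pairs of one short motif there. The stretch runs from 120 bases before the start to 20 bases into the gene, chr9:107296539-107296678 on the plus strand (RefSeq, GRCm38.p6), and capitals mark the 2 matches to TTCNNNGAA, a motif that reads the same on both strands. They lie at chr9:107296659-107296667 and chr9:107296670-107296678. Among 32851 promoter windows of 300 bases (250 before to 50 after the start) 8.30% held at least 1 match and 0.457% at least 2. A match is a description of the letters and no evidence of binding in these cells.
Cish: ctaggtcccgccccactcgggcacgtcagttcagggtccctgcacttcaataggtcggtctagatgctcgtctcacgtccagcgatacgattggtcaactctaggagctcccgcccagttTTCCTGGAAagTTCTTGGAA

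Igf1, the growth factor that growth hormone raises, had 4771, 4205 and 5930 in the treated 52-week libraries, against 7899.6, 7522 and 8374 in the 12-week libraries (log2 fold change −0.69 ± 0.16 (SE), adjusted p = 0.0331). The groups did not overlap, but the call was lost in 5 of the 6 cases with 1 library left out and under stroma scaling (−0.21, adjusted p = 0.392). Of 12 genes for insulin-like growth factors, their receptors and binding proteins, Igf1 and Igfbp7 (−0.77, adjusted p = 0.03) fell and none rose. Igfbp7 was likewise lost in 5 of the 6 cases and under stroma scaling (adjusted p = 0.247), and did not pass edgeR (adjusted p = 0.0749). The growth hormone receptor Ghr, chosen after its values were seen, did not pass (−0.52 ± 0.18, adjusted p = 0.172).

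Genes of BMP and Wnt signaling fell in part. Of 29 TGF-beta and BMP genes 6 fell, beside 0.991% of all genes tested, and none rose (median −0.57, and 1 higher and 1 lower under stroma scaling). Bmp4, a bone morphogenetic ligand, had 1036, 814 and 2042 normalized counts in the treated 52-week libraries, against 3297, 2628 and 4646 in the 12-week libraries (log2 fold change −1.51 ± 0.29 (SE), adjusted p = 0.0164), and was the member that fell under stroma scaling as well (adjusted p = 0.0311). With 1 library left out it was lost in 4 of 6 cases (highest 0.0655). Id3, a target of BMP receptors, had 2658, 2437 and 3058 in the treated 52-week libraries, against 4833, 5335 and 6355 in the 12-week libraries (log2 fold change −1.02 ± 0.16 (SE), adjusted p = 0.00624), kept its call with any library left out and lost it under stroma scaling (adjusted p = 0.0626). Bmp6 (−0.70), the BMP binding protein Chrdl1 (−0.67) and the latent TGF-beta binding protein Ltbp1 (−0.68) fell too, with adjusted p 0.0171, 0.0407 and 0.0282, and none of them under stroma scaling.

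Of 24 Wnt genes 3 fell, beside 0.991% of all genes tested, and none rose. Their median of −0.41 changed sign to 0.07 under stroma scaling. The secreted Wnt inhibitor Wif1 had 634, 763 and 974 in the treated 52-week libraries, against 1394, 1896 and 1641 in the 12-week libraries (log2 fold change −1.07 ± 0.20 (SE), adjusted p = 0.0141). Rspo2, a secreted Wnt amplifier, had 599, 562 and 637 in the treated 52-week libraries, against 1162, 1087 and 1274 in the 12-week libraries (log2 fold change −0.97 ± 0.18 (SE), adjusted p = 0.0119). Sfrp4, a decoy receptor of Wnt ligands, fell as well (−0.71 ± 0.15, adjusted p = 0.0208). All 3 were lost under stroma scaling (adjusted p = 0.105, 0.136 and 0.366). Axin2, a common Wnt target, had 5.81, 19.3 and 42.1 in the treated 52-week libraries, against 40.9, 80.8 and 49.4 in the 12-week libraries, with overlap (adjusted p = 0.319).

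Of the hedgehog pathway, Gli1 and Hhip rose. Gli1 (chr10:127329882-127341974 on GRCm38), the transcription factor that reports hedgehog activity, had 64.5, 80.4 and 52.4 normalized counts in the treated 52-week libraries and 61.7, 40 and 22 in the untreated 52-week libraries, against 2.66, 3.59 and 4.49 in the 12-week libraries. Every treated library was more than 10 times every young one (log2 fold change 3.86 ± 0.75 (SE), adjusted p = 0.0164), and yet the call was lost without treated replicate 1 or 2 (highest adjusted p = 0.122). With a 12-week mean below 10, Gli1 passed the filter on low values only through the treated libraries. Hhip, the hedgehog binding inhibitor that is a target of the pathway, had 738, 637 and 505 in the treated 52-week libraries, against 191, 328 and 330.1 in the 12-week libraries (log2 fold change 1.17 ± 0.26 (SE), adjusted p = 0.0322), and was lost in 4 of the 6 cases. Ptch1, the hedgehog receptor and also a target, was chosen after its values were seen: it had 1613, 1793 and 1596 in the treated 52-week libraries, against 1359, 1515 and 1116 in the 12-week libraries, without overlap, but did not pass (adjusted p = 0.409). Under stroma scaling Ptch1 did pass (0.81, adjusted p = 0.0419). Of 19 FGF and hedgehog genes Gli1 and Hhip rose and the FGF receptor Fgfr2 fell (−0.80 ± 0.15, adjusted p = 0.0132), which did not pass under stroma scaling (adjusted p = 0.293). The median of this list was −0.15, and 0.33 under stroma scaling.

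Some stromal genes that rose were chosen after their values were seen. Shisa3, of a family known in Xenopus for holding Wnt and FGF receptors in the endoplasmic reticulum, had 786, 818 and 837 normalized counts in the treated 52-week libraries and 735, 573 and 124 in the untreated 52-week libraries, against 173, 153 and 192 in the 12-week libraries. Both groups were narrow and far apart (log2 fold change 2.23 ± 0.22 (SE), adjusted p = 0.000333), and no library left out changed the call. Mgp, the matrix protein that inhibits calcification, had 11972, 15970 and 16465 in the treated 52-week libraries, against 8106, 8539 and 7863 in the 12-week libraries (log2 fold change 0.84 ± 0.15 (SE), adjusted p = 0.0119). Lama2, a laminin chain, had 2280.5, 2154 and 2476 in the treated 52-week libraries, against 1207, 1336 and 1274 in the 12-week libraries (log2 fold change 0.85 ± 0.16 (SE), adjusted p = 0.0119). Mgp was lost without treated replicate 2 or young replicate 1 and Lama2 without young replicate 1, by small margins (highest adjusted p = 0.0521 and 0.0539). Ces1d, a carboxylesterase, had 108, 89.6 and 122 in the treated 52-week libraries, against 3.55, 8.97 and 14.6 in the 12-week libraries (log2 fold change 3.58 ± 0.64 (SE), adjusted p = 0.0111), and was lost without treated replicate 1 or 2. With a 12-week mean below 10, Ces1d passed the filter on low values only through the treated libraries. Pi16, a marker of adventitial fibroblasts and the 1 of 11 fibroblast markers tested that rose, had 147, 92.7 and 66.8 in the treated 52-week libraries, against 30.2, 10.2 and 18 in the 12-week libraries (log2 fold change 2.38 ± 0.57 (SE), adjusted p = 0.041), and was lost in 5 of the 6 cases.

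**Figure D4:**
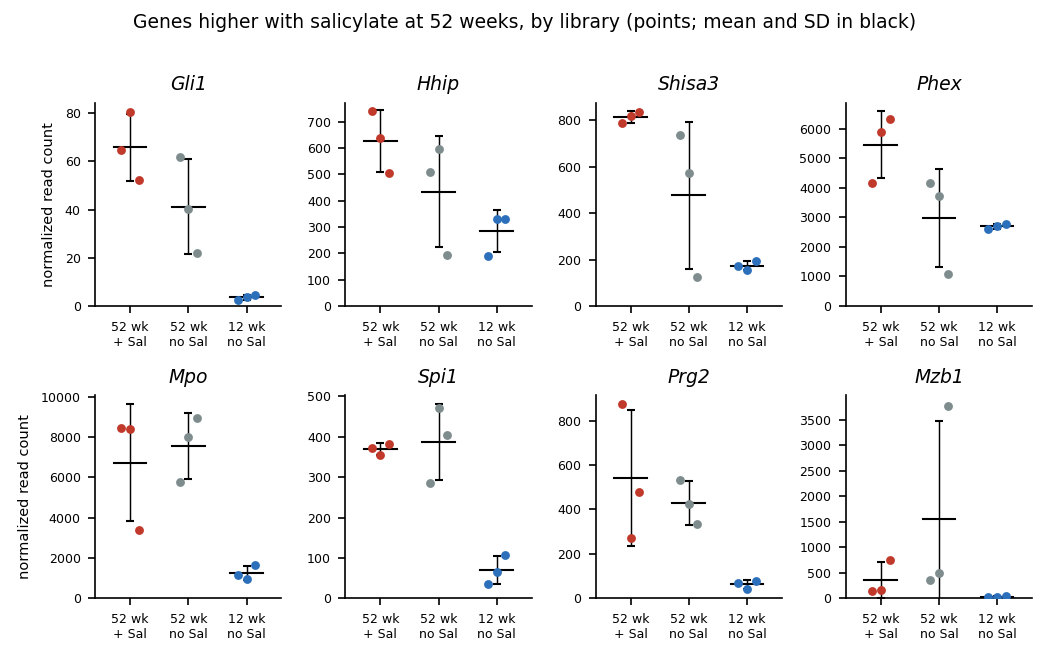
Normalized counts on a linear axis for 8 genes that rose, with 1 point per library for treated 52-week, untreated 52-week and 12-week cells and the mean and SD of each group. The treated libraries lie above the 12-week libraries for all 8, and relative to its mean the SD of the treated group is widest for Mpo, Prg2 and Mzb1.

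Genes on the pathways that salicylate is known to act on gave few calls, and in this comparison age differs with it. Of 22 genes for NF-kB subunits, inhibitors and targets none passed limma or edgeR and 4 had an unadjusted p below 0.05, 3 of them lower, while DESeq2 called 1 higher and 1 lower. The median was −0.10, with 14 of 22 negative, and it was 0.38 under stroma scaling, where 1 rose. The chemokine Ccl2 had 1819, 5349.8 and 2412 in the treated 52-week libraries, against 4558, 3719 and 6224 in the 12-week libraries (adjusted p = 0.307), with treated replicate 2 the highest of its group. Cxcl1, another chemokine, had 1909, 6224 and 2964 in the treated 52-week libraries, against 3805, 2368 and 3598 in the 12-week libraries (adjusted p = 0.982), and the NF-kB cofactor Nfkbiz overlapped as well (−0.23 ± 0.19, adjusted p = 0.654). Of 15 AMPK subunits and targets none passed limma or edgeR and 1 had an unadjusted p below 0.05 (median 0.09), among them the catalytic subunits Prkaa1 (0.09 ± 0.17) and Prkaa2 (−0.67 ± 0.23, adjusted p = 0.18) and Cpt1a, the gate of mitochondrial fatty acid import (0.41 ± 0.25). Of 12 genes of prostaglandin synthesis and its receptors Ptgis, the prostacyclin synthase, fell, with 75.5, 87.3 and 181 in the treated 52-week libraries, against 345, 253 and 338 in the 12-week libraries (log2 fold change −1.53 ± 0.35 (SE), adjusted p = 0.0337), but not under stroma scaling (adjusted p = 0.0732). Ptgs2, the inducible cyclooxygenase, chosen after its values were seen, had 389.8, 899 and 237 in the treated 52-week libraries, against 585, 497 and 355 in the 12-week libraries (adjusted p = 0.947). A p that misses the threshold does not show that these genes were alike in the 2 groups.

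Of 19 chemokines and cytokines 2 rose and none fell. Cxcl13, the attractant of B cells to follicles, had 144, 156 and 281 in the treated 52-week libraries, against 46.2, 40.1 and 12.3 in the 12-week libraries (log2 fold change 2.65 ± 0.52 (SE), adjusted p = 0.0171), and was lost without treated replicate 2 or 3. Il1b, an inflammatory cytokine of myeloid cells, had 761, 971 and 611 in the treated 52-week libraries, against 296, 115 and 337 in the 12-week libraries (log2 fold change 1.76 ± 0.35 (SE), adjusted p = 0.0184), and was lost without treated replicate 1 or 2. The median of the list was −0.07. Of 22 interferon response genes 20 had a negative difference (median −0.56), and Ifitm3, which blocks viral entry (−0.62 ± 0.14, adjusted p = 0.0346), and Ifi27 (−0.93 ± 0.22, adjusted p = 0.0398) fell. Neither passed under stroma scaling, where the list had no call.

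Notch receptors, their ligands and targets gave no call among 14 tested in limma, edgeR or DESeq2 and no unadjusted p below 0.05 (median −0.28, which changed sign to 0.20 under stroma scaling). Notch2 had 2272, 2446 and 2347 normalized counts in the treated 52-week libraries, against 2628, 2831 and 2578 in the 12-week libraries, without overlap but by a small margin (log2 fold change −0.19 ± 0.15 (SE), adjusted p = 0.635). Notch1 (−0.27 ± 0.23), Notch3 (−0.35 ± 0.18) and Notch4 (−0.31 ± 0.50) did not pass, with adjusted p 0.677, 0.415 and 0.856. Jag1, a Notch ligand, had 595, 558 and 637 in the treated 52-week libraries, against 769.9, 634 and 882 in the 12-week libraries (adjusted p = 0.482). The target genes Hes1 (−0.43 ± 0.26), Hey1 (−0.11 ± 0.29) and Heyl (0.09 ± 0.26) all overlapped between the groups (adjusted p = 0.506, 0.924 and 0.93).

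Other gene groups gave 1 to 3 calls each. Of 26 cell division genes 24 had a positive difference (median 0.72, and 0.34 to 0.96 with 1 library left out), and Ube2c, a ubiquitin ligase partner of mitosis, rose (690.5, 616 and 377 in the treated 52-week libraries, against 188, 319 and 141 in the 12-week libraries, log2 fold change 1.41 ± 0.32 (SE), adjusted p = 0.0343), while Pcna, the replication clamp, did not pass (0.27 ± 0.20, adjusted p = 0.617). Under stroma scaling 6 of the 26 rose, and 0 to 5 did with 1 library left out. Of 20 genes of protein folding and secretion 19 were positive and 2 rose, Edem1 (1.10) and Sdf2l1 (1.51), and 13 did under stroma scaling. Of 21 glycolysis and hypoxia genes the lactate exporter Slc16a3 (1.75 ± 0.36) and pyruvate kinase Pkm (0.80 ± 0.20) rose and the vessel growth factor Vegfa fell (−0.998 ± 0.22). Of 27 immediate early genes Zfp36 (−0.70), Klf6 (−0.75) and Socs3 (−0.75) fell, none of them under stroma scaling. Slc7a11, the cystine importer, rose among 17 ATF4 targets (1.29), Lmnb1, the lamin whose loss marks senescent cells, rose among 12 senescence genes (1.26), and Mmp9 (0.92) and Ncam1 (0.97) rose among 4 osteoclast and 3 Schwann cell markers. With 1 library left out each of these calls was lost in at least 2 of the 6 cases.

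No call was made by limma among 25 cytosolic ribosomal protein genes (median 0.18), 24 nuclear genes of oxidative phosphorylation (0.02), 11 mitochondrially encoded genes (0.01), 22 antioxidant genes (−0.20), 18 clock genes (−0.35), 17 heat shock genes (0.02), 18 sterol and fatty acid genes (0.26), 11 imprinted growth genes (−0.63) or 10 drug metabolism genes (−0.18). In each of these lists 1 to 7 genes had an unadjusted p below 0.05, edgeR called 1 gene, an imprinted one, and DESeq2 called at most 3 in a list. Under stroma scaling the medians of the antioxidant, clock and drug metabolism genes were positive instead. Over all lists, 53 of the 228 other genes that rose and 50 of the 148 that fell were members.

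**Figure D5:**
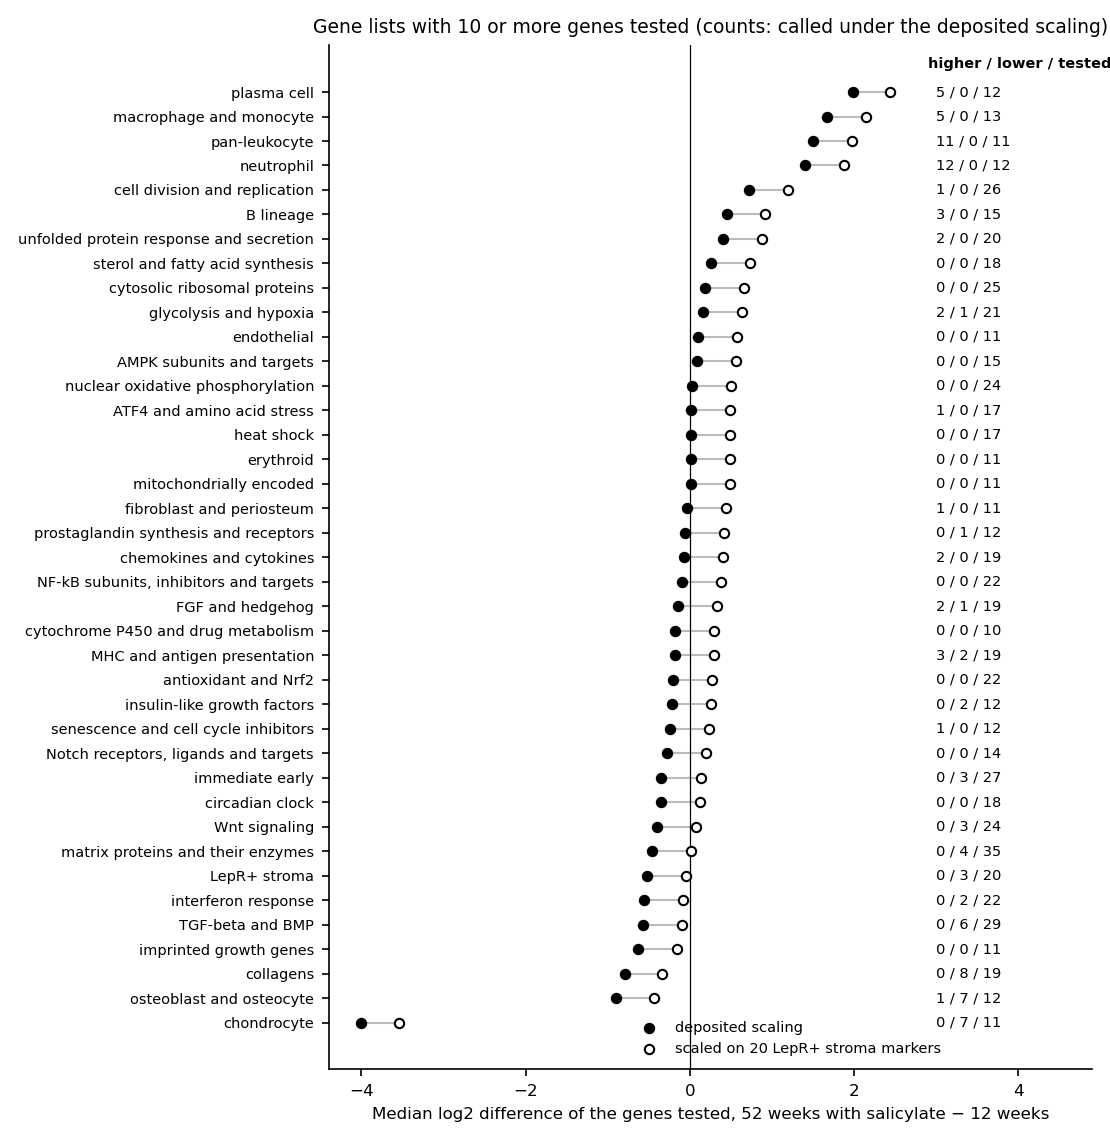
Median difference on log2(normalized count + 1), treated 52-week minus 12-week, for each gene list with at least 10 tested members, with filled points for the deposited scaling and open points for scaling by 20 LepR+ stroma markers; the numbers give members that rose, fell and were tested. Leukocyte, neutrophil, macrophage and plasma cell markers lie to the right under both scalings and chondrocyte markers far to the left, while many other lists move across 0.

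The untreated 52-week libraries are given beside the genes above as values only. Replicate 3 of that group stood apart, with the 20 stroma markers at 142441 normalized counts against 448645 and 573707 in the other 2 of its group. In a fit that took all 9 libraries for the estimate of the spread, 31 genes rose in treated 52-week against 12-week cells, 20 of them immunoglobulin genes, and none fell, with 287 lower at an unadjusted p below 0.05. Untreated replicate 3 was also far below the other 2 of its group for Col1a1 (4724, 5026 and 506) and Shisa3 (735, 573 and 124), which were chosen after their values were seen.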

How the data were processed

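Bulk RNA was sequenced from LepR+ cells of 9 samples, of which the 3 treated (52 weeks, sodium salicylate) and 3 young (12 weeks, no treatment) were compared. The signal values, as deposited by the authors, are gene counts normalized with DESeq2 and written with 2 decimals. The submitters' processing notes name bcl2fastq, STAR, featureCounts, DESeq2 and the builds mm10 and GRCm38. Tool versions, gene annotation and strandedness are not given in the sources used here, so reads of a gene and its antisense partner may not be told apart. Reads were recovered by multiplying each column by 1 factor: 99.9962% to 100% of values were whole within 0.1, and the factors of the 6 libraries were 0.891 to 1.67.

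Genes with a mean of at least 10 over the 6 libraries were tested with limma 3.58.1 (empirical Bayes with a trend, R 4.3.3) on log2(normalized count + 1), with Benjamini-Hochberg adjustment over all of them. Alternatives were a pseudocount of 0.5 or 5, a minimum mean of 50 or none, other scalings, spread estimates with no trend or robust to outliers, the replicate number as a block, all 9 libraries in 1 fit, edgeR 4.0.16 and DESeq2 1.42.0 on recovered reads, and each library left out in turn. Further alternatives were added after seeing the data: scaling by 20 LepR+ stroma markers, with and without treated replicate 3, the filter over 9 libraries, and the fit without immunoglobulin genes. The fit was also run on simulated data, and the outcome is not reported here. A count of 0 allows up to 3 reads, 1.79 to 3.37 normalized counts in the 6 libraries, and counting intervals (95%, exact) cover counting error only.

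Of the symbols, 91.5% matched 1 gene of GENCODE release M21, which gave positions. Named genes were the 12 called genes with the largest and the 12 with the smallest log2 fold change outside immunoglobulin (groups without overlap, higher mean of at least 50), the 8 called immunoglobulin genes with the highest mean and all constant regions, up to 5 called members of each list by adjusted p (or up to 3 with the highest mean where none was called), and 14 genes set by name. Any other gene is said to be chosen after its values were seen. The comparison, its members and the lists were chosen with earlier results of these data known.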

Additional observations from a re-analysis of the deposited data

Results flagged for a closer look

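The untreated 52-week libraries enter this comparison only in the fit with all 9 libraries and in the filter over 9 libraries. They carried antibody reads as well: immunoglobulin genes took 3.25%, 16.5% and 32.6% of their reads (median 16.5%). The share was 1.53%, 1.55% and 8.33% in the treated 52-week libraries, against 0.230%, 0.108% and 0.480% in the 12-week libraries. The untreated libraries were all led by the same variable segment pair, Ighv7-1 (15.5%, 55.4% and 31.5% of heavy variable reads) and Igkv15-103 (28.4%, 72.6% and 44.4% of kappa variable reads).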

How the results depend on the processing

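Outside immunoglobulin 228 genes rose and 148 fell as reported. Higher and lower calls were 837 and 32 under stroma scaling, 1467 and 46 when treated replicate 3 was also left out, 6 and 5 with no trend, 11 and 0 with all 9 libraries, 118 and 69 with edgeR, 476 and 331 with DESeq2, and 107 and 80 with the filter over 9 libraries. Without a filter 89 fell, and with the total without immunoglobulin and mitochondrially encoded genes 90 fell. The 53 immunoglobulin calls became 12 with no trend, 20 with all 9 libraries, 33 with edgeR and 29 with the filter over 9 libraries. With 1 library left out, the counts were 70 to 210 higher, 41 to 188 lower and 27 to 48 immunoglobulin. The cause of these shifts was not tested. No immunoglobulin gene fell under any alternative that tested these genes. Of 128 genes with a call that are given above and were followed, none changed sign under any alternative that tested it, and the call was kept in 2173 and lost in 875 of the gene and alternative pairs. Ighg3, which passed the filter only through the treated libraries, alone kept its call under every alternative that tested it, 23 of the 24. Of 31 such genes without a call, 17 took another sign under at least 1 alternative and 9 were called under at least 1.

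With the replicate number as a block 266 other genes rose and 170 fell and 66 immunoglobulin genes rose. The deviations of same-numbered treated and young libraries from their group means correlated at −0.01, 0.03 and 0.08 for numbers 1, 2 and 3, and the labels state no shared litter, batch or day, so the numbers were not taken as pairs. Depth and 3 libraries a group limit the low genes, and a gene without a call may still differ.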

Other observations

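The following genes that fell were chosen after their values were seen, and no list of their kind was tested. C6, a component of the complement lytic pore, had 1124, 756 and 815 normalized counts in the treated 52-week libraries, against 2987, 3492 and 2639 in the 12-week libraries (log2 fold change −1.77 ± 0.19 (SE), adjusted p = 0.00072). A2m, the protease trap alpha-2-macroglobulin, had 1053, 1149 and 1688 in the treated 52-week libraries, against 3974, 4124 and 3432 in the 12-week libraries (log2 fold change −1.59 ± 0.19 (SE), adjusted p = 0.00145). Both kept their calls with any library left out and under stroma scaling (adjusted p = 0.00758 and 0.00547). Lbp, the binding protein of bacterial lipopolysaccharide, had 3727, 3582 and 3843 in the treated 52-week libraries, against 7141, 7383 and 7047 in the 12-week libraries (log2 fold change −0.95 ± 0.13 (SE), adjusted p = 0.00402), and the complement genes C2 (−0.92 ± 0.18, adjusted p = 0.0164) and Serping1, the inhibitor of the first complement proteases (−0.74 ± 0.16, adjusted p = 0.0256), fell as well. Under stroma scaling Lbp had an adjusted p of 0.0899, C2 of 0.142 and Serping1 of 0.284. C2 was lost in 4 and Serping1 in 5 of the 6 cases with 1 library left out.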
